A study of Rattus norvegicus with 9 samples.

Results

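Genes for the extracellular matrix were followed in rat white matter at 3 times after a demyelinating lesion: 51 genes for collagens, laminins, fibulins, fibrillins, small proteoglycans, thrombospondins, other matrix glycoproteins and the enzymes that modify collagen. They were chosen by symbol, as names beginning with Col and a digit, Lama, Lamb, Lamc, Fbln, Fbn, Nid, Thbs, Lox or Plod, plus a list of single genes such as Fn1, Sparc and Dcn. Of the 7574 genes named on the authors' normalized table these 51 were found, each with 1 probe, and 4 of the single genes sought (Tnc, Eln, Hspg2 and Matn2) and all nidogen genes were not among the named probes. The choice by symbol uses no measured value. The authors' table may itself hold only probes detected on at least 1 array, which could not be checked. If so, a gene that is dim at 1 time is present through a time at which it is brighter. Every one of the 51 encodes a matrix protein or a protein that modifies or folds collagen. Coverage was partial: measured were 9 of 11 fibrillar collagens, 4 of 9 collagens of basement membranes, 5 of 23 other collagens, and 5 of 16 genes for laminins, nidogens and their proteoglycans.

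RNA came from Sprague Dawley rats, 12 weeks old at lesion, whose caudal cerebellar peduncle (a tract of white matter between brainstem and cerebellum) had received 0.1% ethidium bromide. Lesions were cut out by laser from frozen brain after 5, 14 or 28 days (days post lesion, dpl), and 3 Illumina arrays were run for each time, 9 in all. The toxin, which kills glia including oligodendrocytes, was shared by all groups; unlesioned tissue was not analysed here, so every comparison is between times. The series' design calls the arrays of a time biological replicates without naming animals, and p-values measure the spread between these arrays. Markers of the tissue were present: Gfap read 11.53 to 14.68 and Mbp 7.41 to 10.21. At 5 dpl Mbp read only 7.41 to 7.54, close to the background level of 7.31 estimated for this table. Values are the authors' normalized log2 values, which share the same distribution on all arrays. Differences are log2 differences between time point means (n = 3 arrays each) with the standard error (SE) of a limma fit to all 10552 probes, and adjusted p-values are limma's after Benjamini-Hochberg adjustment over all of them, with a threshold of 0.05. A probe's level was not set against another probe's.

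The matrix of healthy central white matter is poor in fibrillar collagen. Fibres of collagen types I, III and V belong to meninges, vessel walls and the connective tissue of peripheral nerve, whereas sheets of laminin, type IV collagen and agrin form the basement membranes around vessels, at the glial limit and around each Schwann cell. Procollagen chains are hydroxylated and folded in the endoplasmic reticulum, wound into a triple helix, secreted, trimmed, and cross-linked by lysyl oxidases. Small leucine-rich proteoglycans coat the fibrils, and matricellular proteins such as thrombospondins and Sparc act on cells and growth factors without building fibres.

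Over the 3 time points 29 of the 51 genes differed by limma's moderated F test, or 56.9%, against 41.4% of all probes. From 5 to 14 dpl 18 rose and 4 fell, or 35.3% and 7.84%, where 10.7% of all probes were higher and 10.1% lower. The median difference of the 51 was 0.21, against -0.01 for all probes. From 14 to 28 dpl 4 rose and 3 fell, or 7.84% and 5.88%, near the 7.49% and 7.48% of all probes. Of the 4 that rose, Col23a1 and Fmod were above background on 28 dpl arrays only, so their place on the table may rest on that time. Over the whole interval from 5 to 28 dpl 24 rose and 5 fell, or 47.1% and 9.80%, against 20.2% and 24.1% of all probes. The steps share the 14 dpl arrays and the whole interval repeats the arrays of both. Of the 51, 20 passed in the first step and not the second, 5 in the second and not the first, and 2 in both. These 3 counts leave the whole interval aside, in which many of the same genes also passed. A further 4 passed in neither step but between 5 and 28 dpl, and 20 in no comparison. The small counts moved with single arrays. The 4 that fell by 14 dpl became 1 with replicate 2 of 5 or 14 dpl left out, and 2 with replicate 3 of either left out. The 4 that rose after 14 dpl became 2 when replicate 2 of 5 or 28 dpl or replicate 1 of 14 dpl was left out, and the 3 that fell became 1 when replicate 3 of 28 dpl was. The 5 lower at 28 than 5 dpl became 3 without 5 dpl replicate 3 or 28 dpl replicate 1 or 3.

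**Figure D1:**
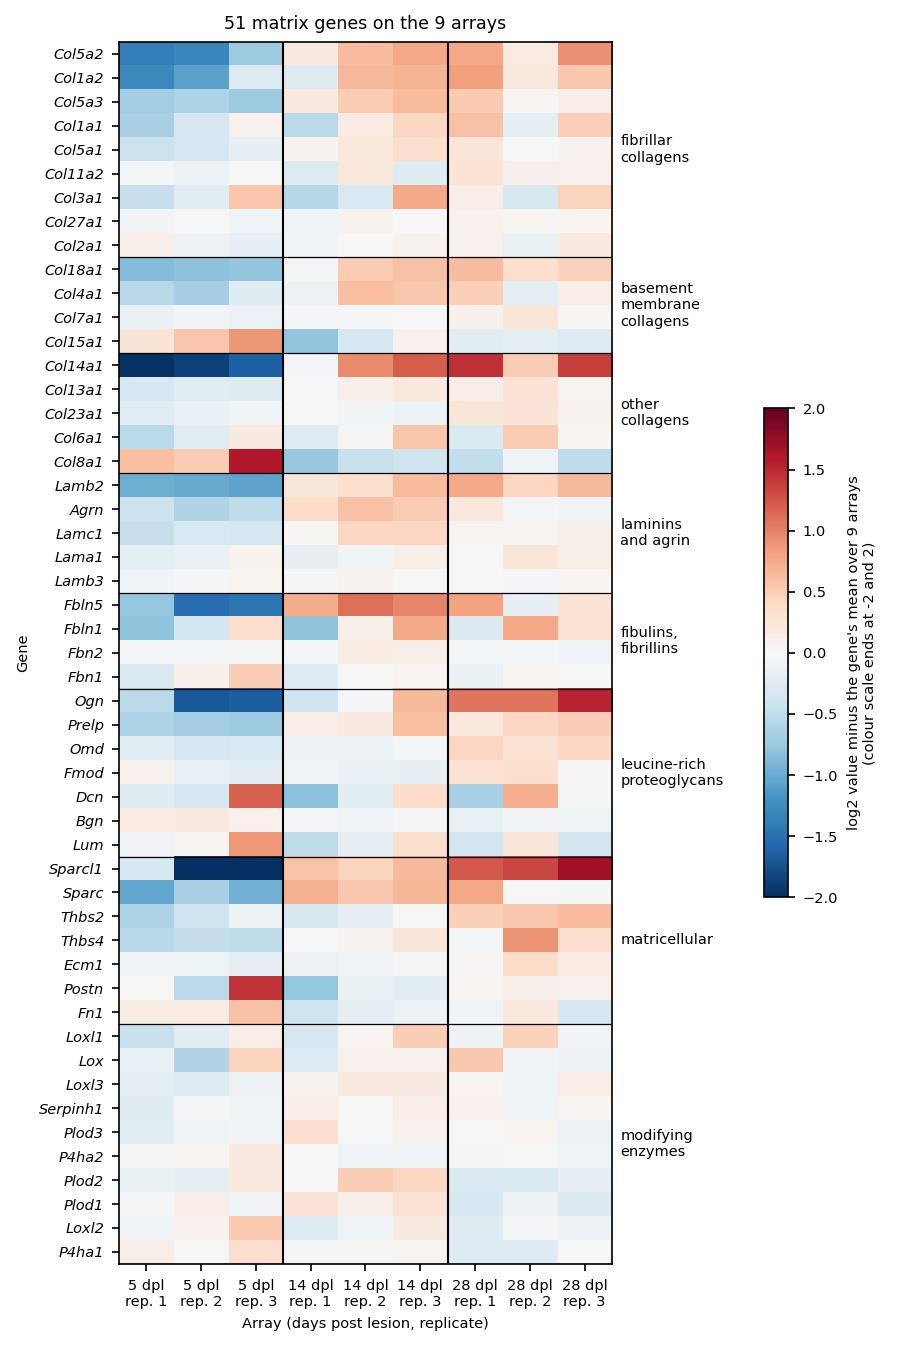
Heat map of 51 matrix genes (rows, grouped by role and ordered within a role by the difference between 28 and 5 dpl) on the 9 arrays (columns); colour is the log2 normalized value minus the gene's mean over the 9 arrays. Col14a1, Lamb2, Col18a1 and Col5a2 are low on all 5 dpl arrays and higher on all later ones, while Dcn, Lum and Postn are highest on 5 dpl replicate 3.

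Type V collagen chains and Col1a2 were the fibrillar collagens that rose. Of 9 fibrillar genes measured, 4 rose by 14 dpl (Col5a1, Col5a2, Col5a3 and Col1a2) and 0 fell. These shares were 44.4% and 0%, against 10.7% and 10.1% of all probes. From 14 to 28 dpl limma called 0 in either direction, and 0 had an unadjusted p under 0.05. Of all probes 7.49% rose and 7.48% fell in that step. The list's median difference was 0.31 from 5 to 14 dpl, 0.09 from 14 to 28 dpl and 0.42 from 5 to 28 dpl. Col5a2, a chain of type V collagen, which starts and limits the width of fibrils, read 8.21, 8.29 and 8.87 at 5 dpl, 9.79, 10.21 and 10.37 at 14 dpl and 10.38, 9.76 and 10.50 at 28 dpl. All 6 later arrays lay above all 5 dpl arrays, and the ranges at 14 and 28 dpl overlapped. Its difference was 1.67 (SE 0.25, adjusted p = 0.00206) by 14 dpl, or 3.18-fold, and 0.09 (SE 0.25, adjusted p = 0.858) in the second step. Col5a3, a chain of the same type typical of nerve, read 7.32, 7.39 and 7.29 at 5 dpl, 8.20, 8.52 and 8.63 at 14 dpl and 8.53, 8.04 and 8.14 at 28 dpl. It too was higher on every later array than at 5 dpl, with a difference of 1.12 (SE 0.14, adjusted p = 0.00105). Col5a1, the chain common to most type V collagen, was dimmer, at 7.22, 7.30 and 7.47 at 5 dpl, 7.70, 7.84 and 7.99 at 14 dpl and 7.88, 7.64 and 7.71 at 28 dpl, and did not overlap between 5 dpl and either later time, with a difference of 0.52 (SE 0.10, adjusted p = 0.0075). At 5 dpl 1 array of Col5a1 and 2 of Col5a3 were above background.

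Of the type I collagen chains Col1a2 passed and Col1a1 did not, and the chains were not tested against each other. Col1a2, the alpha 2 chain, read 11.85, 12.06 and 12.87 at 5 dpl, 12.89, 13.78 and 13.82 at 14 dpl and 13.96, 13.35 and 13.68 at 28 dpl. Replicate 3 was the highest array at 5 dpl and came within 0.02 of the lowest array at 14 dpl. Col1a2 rose by 1.24 (SE 0.32, adjusted p = 0.0265) by 14 dpl and stood 1.40 (SE 0.32, adjusted p = 0.0073) above 5 dpl at 28 dpl. Its 14 dpl call ended when replicate 1 or 2 of 5 dpl or 2 or 3 of 14 dpl was left out (adjusted p = 0.0595 to 0.0973) and with only these time points fitted (0.0542). Col1a1, the alpha 1 chain, read 8.07, 8.38 and 8.81 at 5 dpl, 8.17, 8.89 and 9.13 at 14 dpl and 9.31, 8.52 and 9.20 at 28 dpl, and the 3 ranges overlapped. Its differences of 0.31 (SE 0.30, adjusted p = 0.522) and, over the whole interval, 0.59 (SE 0.30, adjusted p = 0.141) did not pass. Col3a1, the type III chain of vessel walls and healing tissue, read 8.12, 8.37 and 9.14 at 5 dpl, 8.01, 8.28 and 9.34 at 14 dpl and 8.72, 8.26 and 9.03 at 28 dpl, overlapping throughout, with a difference of 0.00 (SE 0.38, adjusted p = 0.998) by 14 dpl and 0.13 by 28 dpl. The interval for Col1a1 from 5 to 28 dpl reached from -0.09 to 1.26 (95%). It overlapped that for Col1a2, from 0.67 to 2.13. Col11a2, Col27a1 and Col2a1, collagens of cartilage, were dim, at 7.08 to 7.84, and did not pass in any comparison; Col11a2 passed for 28 against 14 dpl and against 5 dpl without 14 dpl replicate 2 (0.0164 and 0.0388).

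Of the 4 basement membrane collagens measured 2 rose by 14 dpl and 1 fell (50% and 25%, against 10.7% and 10.1% of all probes). Col18a1, a collagen that carries heparan sulfate and releases endostatin, read 7.90, 7.95 and 7.99 at 5 dpl, 8.72, 9.28 and 9.36 at 14 dpl and 9.39, 9.11 and 9.23 at 28 dpl. Its 5 dpl arrays lay close together and below all later arrays, and it rose by 1.18 (SE 0.15, adjusted p = 0.00118), or 2.26-fold. Col4a1, a chain of the type IV network found in every basement membrane, read 9.69, 9.56 and 10.01 at 5 dpl, 10.15, 10.85 and 10.80 at 14 dpl and 10.72, 10.08 and 10.38 at 28 dpl. The 5 and 14 dpl ranges were apart by 0.14 and those of 5 and 28 dpl by 0.07. It rose by 0.85 (SE 0.22, adjusted p = 0.0276) and was 0.64 (SE 0.22, adjusted p = 0.0438) above 5 dpl at 28 dpl. The first call ended when replicate 1 or 2 of 5 dpl or 2 or 3 of 14 dpl was left out (adjusted p = 0.0537 to 0.103), and the latter when replicate 1 or 2 of 5 dpl, 3 of 14 dpl or 1 or 3 of 28 dpl was left out (adjusted p = 0.0541 to 0.144). Col15a1, which links basement membranes to the fibres around them and is strong around vessels, moved the other way, at 9.48, 9.78 and 10.11 at 5 dpl, 8.44, 8.88 and 9.32 at 14 dpl and 9.01, 9.05 and 8.98 at 28 dpl. Every later array was below the lowest 5 dpl array, and it fell by 0.91 (SE 0.22, adjusted p = 0.0185). That call ended when replicate 2 or 3 of 5 dpl or 2 of 14 dpl was left out (adjusted p = 0.0534 to 0.0643) and with only these time points fitted (0.0516). The one for 28 against 5 dpl with a difference of -0.78 and adjusted p = 0.0179, ended when replicate 3 of 5 dpl or 3 of 28 dpl was left out (adjusted p = 0.0519 to 0.0623). Markers of endothelial cells fell in the same step: 3 of 5 measured (Esam, Tie1 and Vwf, or 60%, against 10.1% of all probes) and 0 rose. Their mean level was 9.31 to 9.40 at 5 dpl against 8.73 to 8.93 at 14 dpl. Their part in the readings of these collagens was not tested. Col7a1, which anchors epithelium, was dim, at 7.18, 7.27 and 7.20 at 5 dpl, 7.28, 7.30 and 7.33 at 14 dpl and 7.42, 7.56 and 7.35 at 28 dpl. It passed only for 28 against 5 dpl, a call (adjusted p = 0.0171) that ended when replicate 3 of 5 dpl was left out (adjusted p = 0.0518). None of its 5 dpl arrays was above the background level of 7.31 estimated for this table, so that the rise was at least 0.13.

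Of the 5 other collagens measured, Col14a1 and Col13a1 rose by 14 dpl and Col8a1 fell (40% and 20%, against 10.7% and 10.1% of all probes). Col14a1, which binds to the surface of fibrils, read 7.11, 7.22 and 7.45 at 5 dpl, 9.05, 10.03 and 10.30 at 14 dpl and 10.55, 9.59 and 10.47 at 28 dpl. At 5 dpl only replicate 3 was above the estimated background. The later arrays were all above the 5 dpl arrays, with 14 dpl replicate 1 and 28 dpl replicate 2 lowest within their times. Its difference was 2.54 (SE 0.34, adjusted p = 0.00136), or 5.8-fold, by 14 dpl and 2.95 (SE 0.34, adjusted p = 0.000224) by 28 dpl. Col8a1, a short-chain collagen of vessel walls and proliferating vascular cells, read 8.87, 8.77 and 9.87 at 5 dpl, 7.52, 7.83 and 7.87 at 14 dpl and 7.77, 8.19 and 7.77 at 28 dpl. All 5 dpl arrays were above all later ones. It fell by 1.43 (SE 0.27, adjusted p = 0.00671) by 14 dpl, and the difference from 14 to 28 dpl was 0.17 (SE 0.27, adjusted p = 0.727). Col13a1, a transmembrane collagen of cell contacts, read 7.12, 7.23 and 7.20 at 5 dpl, 7.43, 7.55 and 7.65 at 14 dpl and 7.58, 7.74 and 7.50 at 28 dpl, below background on all 5 dpl arrays. It was higher by at least 0.23 at 14 dpl (adjusted p = 0.0144), a call that ended when replicate 2 or 3 of 14 dpl was left out (adjusted p = 0.0523 to 0.0581), and by at least 0.29 at 28 dpl (adjusted p = 0.00289). Col23a1, a further transmembrane collagen, read 7.02, 7.10 and 7.17 at 5 dpl, 7.21, 7.18 and 7.11 at 14 dpl and 7.47, 7.48 and 7.30 at 28 dpl. Only 28 dpl replicates 1 and 2 were above background, and its rises after 14 dpl (adjusted p = 0.0411) and from 5 to 28 dpl (adjusted p = 0.00557) were both at least 0.11. The former ended when replicate 2 of 5 dpl, 1, 2 or 3 of 14 dpl or 1 or 2 of 28 dpl was left out (adjusted p = 0.0569 to 0.124). Col6a1, a chain of the beaded filaments of type VI collagen, ranged from 8.46 to 9.55, overlapped at all times and did not pass, with a difference of 0.30 (SE 0.27) by 14 dpl.

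The stretch before the annotated start is shown for 4 collagen genes that rose by 14 dpl and for Col8a1, which fell, so that the promoters of collagens that moved in opposite directions can be read side by side. Windows are RefSeq's, on build GRCr8, and were held for 38 of the 51 genes; letters run 5′ to 3′ on the gene's strand. Capitals mark CCAAT (or ATTGG on the other strand), TATAAA (or TTTATA) and GGGCGG (or CCGCCC), the boxes known to bind NF-Y, TATA-binding protein and Sp1 family factors. Col1a2 lies at chr4:33518317-33518416 (+ strand), Col5a3 at chr8:27625949-27626198 (- strand), Col4a1 at chr16:84885347-84885596 (+ strand), Col18a1 at chr20:11473395-11473644 (+ strand) and Col8a1 at chr11:56246532-56246781 (+ strand). For Col1a2 only the 100 bases around its boxes are shown; for the others the 250 bases that end at the start.
Col1a2: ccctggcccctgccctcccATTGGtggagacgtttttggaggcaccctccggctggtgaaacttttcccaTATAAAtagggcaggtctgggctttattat
Col5a3: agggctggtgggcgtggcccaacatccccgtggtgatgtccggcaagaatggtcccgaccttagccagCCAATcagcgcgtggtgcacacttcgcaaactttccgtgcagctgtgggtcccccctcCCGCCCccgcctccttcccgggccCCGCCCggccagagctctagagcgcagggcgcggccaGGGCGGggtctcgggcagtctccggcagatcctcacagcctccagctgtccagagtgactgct
Col4a1: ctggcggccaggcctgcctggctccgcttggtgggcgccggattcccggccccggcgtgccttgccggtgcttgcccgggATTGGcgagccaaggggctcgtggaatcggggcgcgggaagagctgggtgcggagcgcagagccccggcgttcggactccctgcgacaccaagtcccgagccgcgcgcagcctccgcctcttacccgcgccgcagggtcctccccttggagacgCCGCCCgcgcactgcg
Col18a1: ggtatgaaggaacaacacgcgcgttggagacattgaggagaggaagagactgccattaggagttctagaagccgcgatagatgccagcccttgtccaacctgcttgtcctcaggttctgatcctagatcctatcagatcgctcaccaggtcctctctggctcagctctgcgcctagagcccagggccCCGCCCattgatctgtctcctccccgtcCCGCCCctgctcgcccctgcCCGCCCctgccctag
Col8a1: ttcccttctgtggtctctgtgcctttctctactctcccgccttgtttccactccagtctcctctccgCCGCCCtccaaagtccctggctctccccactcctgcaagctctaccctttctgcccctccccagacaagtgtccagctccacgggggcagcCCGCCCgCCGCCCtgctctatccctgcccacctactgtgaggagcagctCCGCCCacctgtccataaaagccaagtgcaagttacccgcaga
Counted from the annotated start, Col1a2 held a CCAAT box at -221 and a TATA box at -170, while Col18a1 and Col8a1, with opposite readings, each held only GC boxes, 3 and 4 of them. Over the 38 windows of 300 bases (250 before and 50 after the start), 8 held a CCAAT box (21.1%, against 37.7% of all 27457 windows), 5 a TATA box (13.2% against 14.3%) and 20 a GC box (52.6% against 34.9%). Of the 15 windows of genes that rose by 14 dpl, 4, 3 and 6 held them. A match describes the letters and does not show that a factor was bound.

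Laminin chains Lamb2 and Lamc1 rose early, and so did agrin. Of 5 measured genes of this group 3 rose by 14 dpl and 0 fell, with a median difference of 0.65. These shares were 60% and 0%, against 10.7% and 10.1% of all probes. Lamb2, the laminin beta 2 chain of vessels, nerve and the synaptic basement membrane, read 8.29, 8.25 and 8.21 at 5 dpl, 9.50, 9.61 and 9.91 at 14 dpl and 10.03, 9.69 and 9.92 at 28 dpl. It had the smallest adjusted p of the 51 genes in this step, and its 5 dpl arrays spanned only 0.08. The difference was 1.42 (SE 0.12, adjusted p = 0.000154) by 14 dpl, or 2.67-fold, and 0.21 (SE 0.12, adjusted p = 0.27) after it. Lamc1, the gamma 1 chain shared by most laminins, read 7.44, 7.60 and 7.55 at 5 dpl, 7.93, 8.32 and 8.31 at 14 dpl and 7.96, 7.96 and 8.02 at 28 dpl, again with no later array as low as 5 dpl. It rose by 0.65 (SE 0.10, adjusted p = 0.00297); the step after 14 dpl, -0.21 (SE 0.10, adjusted p = 0.221), passed when replicate 1 of 14 dpl was left out (adjusted p = 0.0231). Agrn encodes agrin, a heparan sulfate proteoglycan that joins laminin to dystroglycan, and read 9.39, 9.22 and 9.31 at 5 dpl, 10.20, 10.41 and 10.33 at 14 dpl and 10.04, 9.78 and 9.74 at 28 dpl. Its 3 ranges did not overlap, with 14 dpl on top. Agrn was the only 1 of the 51 genes to rise by 14 dpl and fall after it, as 0.635% of all probes did. The rise was 1.00 (SE 0.09, adjusted p = 0.000281) and the later difference -0.46 (SE 0.09, adjusted p = 0.0138), which ended when replicate 3 of 28 dpl was left out (adjusted p = 0.0538). Lama1, the alpha 1 chain of pial and embryonic membranes, read 7.05, 7.11 and 7.32 at 5 dpl, 7.09, 7.19 and 7.37 at 14 dpl and 7.25, 7.49 and 7.36 at 28 dpl, and Lamb3, a chain of epithelial laminin, 7.20 to 7.33, with 4 and 1 arrays above background; neither passed.

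Markers of Schwann cells, which wrap themselves in laminin-rich basement membrane and can myelinate in lesions of this kind, moved in the same step. Of 6 measured, 5 rose by 14 dpl (83.3%, against 10.7% of all probes) and 0 fell. After 14 dpl 0 passed limma's test in either direction, with 1 higher at an unadjusted p under 0.05. The mean level of the 6 was 8.40, 8.37 and 8.50 at 5 dpl, 9.95, 10.52 and 10.47 at 14 dpl and 10.76, 10.34 and 10.61 at 28 dpl. Replicate 1 was the lowest array at 14 dpl, as for 42 of the 51 matrix genes (82.4%, against 35.1% of all probes above background). Replicate 2 was the lowest at 28 dpl, as for 18 of them (35.3%, near the 36.0% of all probes above background). This order was not particular to Schwann cell markers. Replicate 1 was also lowest at 14 dpl in the mean level of fibroblast, endothelial and myelin markers, though not of astrocyte, macrophage or neuron markers. Dhh, a signal that Schwann cells send to the sheath around nerve, read 7.55, 7.37 and 7.65 at 5 dpl, 9.89, 10.72 and 10.65 at 14 dpl and 10.92, 10.48 and 10.64 at 28 dpl. Dag1 and Itga7, which encode the laminin receptors dystroglycan and integrin alpha 7, rose by 2.00 (SE 0.19, adjusted p = 0.000322) and 2.11 (SE 0.24, adjusted p = 0.000671) by 14 dpl. Myelin markers moved too: all 8 measured rose by 14 dpl (100%, against 10.7% of all probes), with a median difference of 1.74. After it 7 rose again (87.5%, against 7.49% of all probes). The part of Schwann cells or of myelinating cells in the readings of laminins and collagens was not tested, and fewer cells of a type and less RNA per cell cannot be told apart in such samples.

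**Figure D2:**
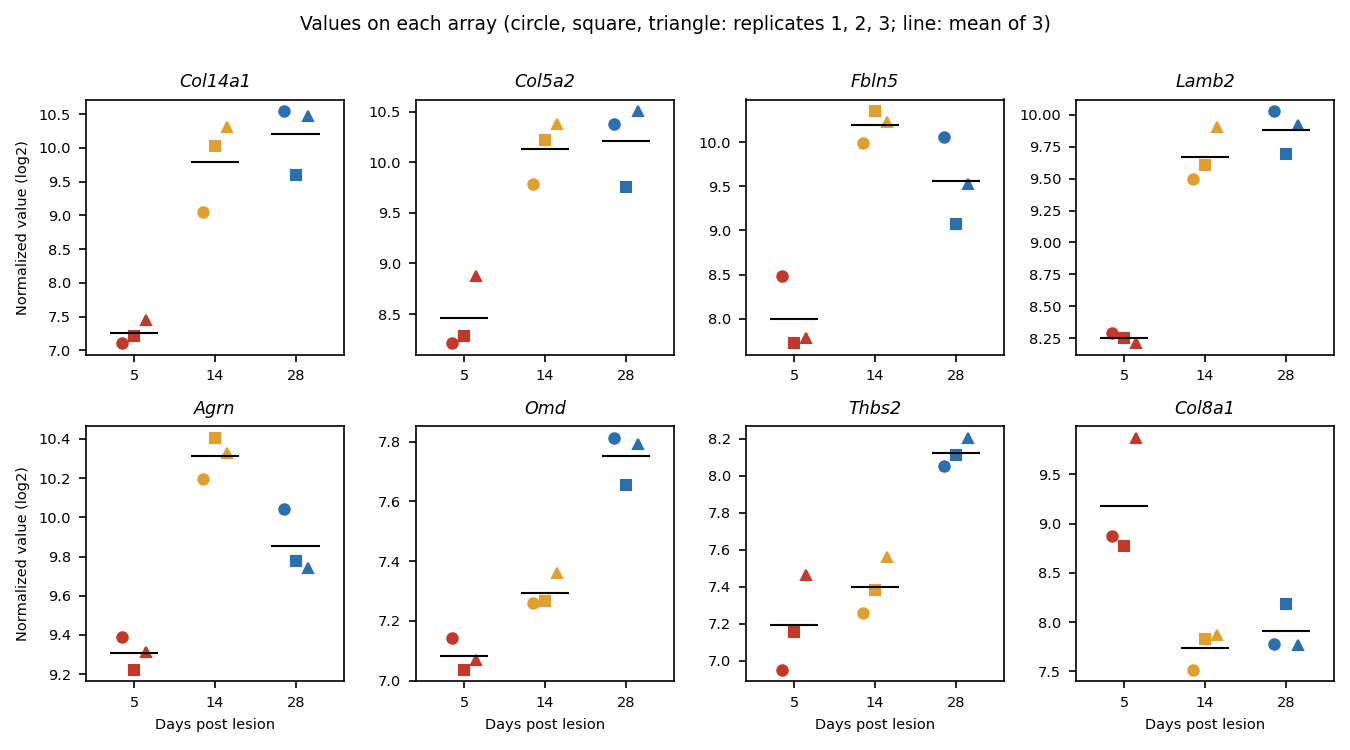
Normalized log2 values of 8 matrix genes on each array against days post lesion; symbols are replicates and the line is the mean of 3 arrays, and each panel has its own scale. Col14a1, Col5a2, Fbln5 and Lamb2 sit above all 5 dpl arrays at both later times, Agrn is highest at 14 dpl, Omd and Thbs2 are highest at 28 dpl, and Col8a1 is highest at 5 dpl.

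Of the 4 fibulins and fibrillins only Fbln5 passed, higher at 14 and 28 than 5 dpl (25%, against 10.7% and 20.2% of all probes). Fibulin 5 joins elastic fibres to integrins on the cell, and its gene read 8.48, 7.72 and 7.79 at 5 dpl, 9.99, 10.35 and 10.23 at 14 dpl and 10.06, 9.08 and 9.53 at 28 dpl. Replicate 1 was the highest array at 5 dpl, and still 0.60 below the lowest later array. Fbln5 rose by 2.19 (SE 0.27, adjusted p = 0.000865), or 4.57-fold, by 14 dpl. After that its difference was -0.64 (SE 0.27, adjusted p = 0.147), and at 28 dpl it was still 1.56 (SE 0.27, adjusted p = 0.00173) above 5 dpl. Fbln1, of vessel walls and basement membranes, read 10.40, 10.82 and 11.56 at 5 dpl, 10.40, 11.31 and 11.96 at 14 dpl and 10.92, 11.96 and 11.50 at 28 dpl. Within each time its arrays spanned 1 or more on the log2 scale, and the differences of 0.30 (SE 0.44, adjusted p = 0.69) and 0.53 (SE 0.44, adjusted p = 0.358) from 5 dpl did not pass. Fbn1, the fibrillin of microfibrils, read 7.54, 7.92 and 8.31 at 5 dpl, 7.56, 7.81 and 7.87 at 14 dpl and 7.68, 7.85 and 7.82 at 28 dpl, with a difference of -0.17 (SE 0.17, adjusted p = 0.544). Fbn2, the fibrillin of the embryo, read 7.22, 7.20 and 7.20 at 5 dpl, 7.21, 7.39 and 7.35 at 14 dpl and 7.21, 7.20 and 7.18 at 28 dpl, above background on 2 arrays only, and did not pass.

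Small leucine-rich proteoglycans split by gene. Of 7 measured, 3 rose and 1 fell by 14 dpl (42.9% and 14.3%, against 10.7% and 10.1% of all probes). After 14 dpl 2 rose (28.6% against 7.49%). From 5 to 28 dpl 4 rose and 1 fell (57.1% and 14.3%, against 20.2% and 24.1%). Ogn, which encodes osteoglycin (mimecan), read 8.45, 7.30 and 7.34 at 5 dpl, 8.59, 8.97 and 9.64 at 14 dpl and 10.06, 10.07 and 10.52 at 28 dpl. Replicate 1 was the high array at 5 dpl, where 2 arrays were above background, and every 28 dpl array lay above every 14 dpl array. It rose by 1.37 (SE 0.35, adjusted p = 0.0247) by 14 dpl, a call that ended when replicate 2 or 3 of 5 dpl or 2 or 3 of 14 dpl was left out (adjusted p = 0.0664 to 0.0857) and with only these time points fitted (0.0559). Its further difference of 1.15 (SE 0.35, adjusted p = 0.059) missed the threshold, and passed when replicate 1 of 5 dpl or 3 of 14 dpl was left out (adjusted p = 0.0151 to 0.0422), with array weights (0.0389), with a mean-variance trend (0.0488) and with only these time points fitted (0.0258). From 5 to 28 dpl the rise was 2.52 (SE 0.35, adjusted p = 0.000557). Prelp, which binds basement membranes to collagen, read 7.33, 7.25 and 7.23 at 5 dpl, 8.09, 8.14 and 8.55 at 14 dpl and 8.16, 8.36 and 8.44 at 28 dpl. It rose by 0.99 (SE 0.12, adjusted p = 0.00103) by 14 dpl and differed by 0.06 (SE 0.12, adjusted p = 0.791) after it; at 5 dpl 1 of its arrays was above background.

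Omd, which encodes osteomodulin, was the only 1 of the 51 to rise in both steps, as 2.96% of all probes did. It read 7.14, 7.04 and 7.07 at 5 dpl, 7.26, 7.27 and 7.36 at 14 dpl and 7.81, 7.65 and 7.79 at 28 dpl. All 5 dpl arrays and 2 of the 14 dpl arrays were below background, so no size is given for the early rise (adjusted p = 0.0441), a call that ended when replicate 2 or 3 of 5 dpl, 1, 2 or 3 of 14 dpl or 1 or 3 of 28 dpl was left out (adjusted p = 0.0549 to 0.148) and with only these time points fitted (0.0533). The later rise was 0.46 (SE 0.06, adjusted p = 0.00289), and from 5 to 28 dpl the rise was at least 0.44 (adjusted p = 7.73e-05). Fmod, the fibril-binding fibromodulin, ranged from 6.99 to 7.55 and was above background on 28 dpl replicates 1 and 2 only. Its rises after 14 dpl (adjusted p = 0.0483) and from 5 dpl (adjusted p = 0.0301) were at least 0.12. The former ended when replicate 2 or 3 of 5 dpl, 1, 2 or 3 of 14 dpl or 1 or 2 of 28 dpl was left out (adjusted p = 0.0506 to 0.138) and with cyclic loess (0.0577), and the latter when replicate 2 or 3 of 5 dpl or 1 or 2 of 28 dpl was left out (adjusted p = 0.0865 to 0.101) and with only these time points fitted (0.0665). Bgn, biglycan, also a ligand of innate immune receptors, read 7.98, 8.02 and 7.91 at 5 dpl, 7.79, 7.74 and 7.77 at 14 dpl and 7.67, 7.75 and 7.73 at 28 dpl. It fell by 0.20 (SE 0.05, adjusted p = 0.0253) by 14 dpl, with every 5 dpl array above every later one, and that call ended when replicate 2 of 5 dpl or 2 or 3 of 14 dpl was left out (adjusted p = 0.0739 to 0.0923). From 5 to 28 dpl it fell by 0.25 (SE 0.05, adjusted p = 0.00431).

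Dcn and Lum, decorin and lumican, the proteoglycans that fibroblasts make in bulk, did not pass. Dcn read 11.00, 10.91 and 12.42 at 5 dpl, 10.43, 11.04 and 11.61 at 14 dpl and 10.60, 11.98 and 11.22 at 28 dpl. Lum read 9.35, 9.45 and 10.28 at 5 dpl, 8.91, 9.25 and 9.77 at 14 dpl and 9.04, 9.66 and 9.05 at 28 dpl. In both, 5 dpl replicate 3 was the highest of all 9 arrays and 14 dpl replicate 1 the lowest. The differences by 14 dpl were -0.42 (SE 0.49, adjusted p = 0.608) and -0.38 (SE 0.30, adjusted p = 0.422), smaller than the span of the arrays within a time.

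Most matricellular genes were higher at 28 than at 5 dpl. Of 7 measured, 2 rose and 1 fell by 14 dpl (28.6% and 14.3%, against 10.7% and 10.1% of all probes). After 14 dpl 1 rose (14.3% against 7.49%). From 5 to 28 dpl 5 rose (71.4% against 20.2%), with a median difference of 0.92 over the whole interval. Sparc, a collagen-binding protein made by vessels, glia and fibroblasts, read 10.48, 10.87 and 10.55 at 5 dpl, 12.23, 12.06 and 12.18 at 14 dpl and 12.29, 11.52 and 11.48 at 28 dpl. Every later array was above 5 dpl, and replicate 1 stood out at 28 dpl. The rise was 1.52 (SE 0.20, adjusted p = 0.00132), and the difference after it, -0.39 (SE 0.20, adjusted p = 0.235), passed when replicate 1 of 28 dpl was left out (adjusted p = 0.0165). Sparcl1 encodes hevin, its relative made by astrocytes and neurons, which acts in synapse formation, and read 12.16, 9.50 and 9.85 at 5 dpl, 13.05, 12.93 and 13.13 at 14 dpl and 13.70, 13.81 and 14.15 at 28 dpl. Replicate 1 at 5 dpl lay over 2 above both other arrays of that time. Neuron markers were also highest on that array, with a mean level over 8 genes of 10.55, 8.45 and 8.74 at 5 dpl against 8.42 to 9.43 later. It was also the highest 5 dpl array for astrocyte markers, at 10.14 against 9.23 and 9.35. For myelin markers it read 9.07 against 8.51 and 8.49. Of 8 astrocyte markers 3 rose by 14 dpl (37.5%, against 10.7% of all probes) and 6 from 5 to 28 dpl (75% against 20.2%), and 0 fell. The part of these cell types was not tested. Sparcl1 rose by 2.53 (SE 0.58, adjusted p = 0.0155) by 14 dpl and by 3.38 (SE 0.58, adjusted p = 0.0017) by 28 dpl. The first call ended when replicate 3 of 5 dpl or 3 of 14 dpl was left out (adjusted p = 0.054 to 0.0571). Its step after 14 dpl, 0.85 (SE 0.58, adjusted p = 0.371), passed when replicate 1 of 5 dpl was left out (adjusted p = 0.00472) and with only these time points fitted (0.00553).

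Both thrombospondins measured had their highest mean at 28 dpl. Thbs2, a thrombospondin that binds matrix metalloproteinases and restrains vessel growth, read 6.95, 7.16 and 7.46 at 5 dpl, 7.26, 7.38 and 7.56 at 14 dpl and 8.05, 8.11 and 8.21 at 28 dpl. The 5 and 14 dpl ranges overlapped and the 28 dpl arrays lay above both. At 5 dpl 1 of its arrays was above background, and at 14 dpl 2 were. It differed by 0.21 (SE 0.13, adjusted p = 0.299) by 14 dpl and rose by 0.72 (SE 0.13, adjusted p = 0.00814) after it. Thbs4, of muscle, tendon and reactive astrocytes, read 7.48, 7.56 and 7.52 at 5 dpl, 8.05, 8.11 and 8.27 at 14 dpl and 8.00, 8.93 and 8.38 at 28 dpl. All later arrays were above 5 dpl and 28 dpl replicate 2 was the highest. Its early difference of 0.62 (SE 0.19, adjusted p = 0.0524) missed the threshold and passed when replicate 1 or 2 of 28 dpl was left out (adjusted p = 0.00573 to 0.0173), with array weights (0.0264), with a mean-variance trend (0.0432), with cyclic loess (0.0495), under the filter on dim probes (0.0467) and with only these time points fitted (0.0032), while the rise from 5 to 28 dpl was 0.92 (SE 0.19, adjusted p = 0.00486). Ecm1, a glycoprotein of skin and vessels that ranged from 7.40 to 7.94, differed by 0.29 (SE 0.09, adjusted p = 0.023) from 5 to 28 dpl. That call ended when replicate 2 or 3 of 5 dpl or 2 of 28 dpl was left out (adjusted p = 0.0505 to 0.0743) and with only these time points fitted (0.0513), and its step after 14 dpl (adjusted p = 0.0828) passed when replicate 1 of 28 dpl was left out (adjusted p = 0.0439).

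Fn1, fibronectin, the adhesive scaffold of early wounds, was the matricellular gene that fell. It read 10.58, 10.59 and 11.01 at 5 dpl, 10.01, 10.24 and 10.32 at 14 dpl and 10.37, 10.62 and 10.10 at 28 dpl. All 14 dpl arrays were below all 5 dpl arrays, and the 28 dpl range overlapped that of 5 dpl. It fell by 0.53 (SE 0.16, adjusted p = 0.0468) by 14 dpl, close to the threshold, and the call ended when replicate 2 or 3 of 5 dpl, 1, 2 or 3 of 14 dpl or 1 of 28 dpl was left out (adjusted p = 0.067 to 0.138) and with cyclic loess (0.0579). The difference of -0.36 (SE 0.16, adjusted p = 0.0995) from 5 to 28 dpl missed the threshold, and passed when replicate 2 of 28 dpl was left out (adjusted p = 0.0433) and with array weights (0.0345). Postn, periostin, a protein of scar-forming fibroblasts, ranged from 9.68 to 11.89, highest on 5 dpl replicate 3, and did not pass. Macrophage and microglia markers fell over the same times, 4 of 9 by 14 dpl (44.4%, against 10.1% of all probes), with 0 higher. From 5 to 28 dpl 8 of 9 fell (88.9% against 24.1%) and 0 were higher. Their part was not tested.

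Of 10 enzymes and chaperones of collagen measured, 1 rose by 14 dpl (10%, near the 10.7% of all probes) and 0 fell, where 5 were higher and 0 lower at an unadjusted p under 0.05; 2 fell (20%, against 7.48% of all probes) and 0 rose after 14 dpl, with 2 lower and 0 higher unadjusted. The list's medians were 0.20, -0.09 and -0.02 for the early step, the late step and the whole interval. Plod1, a lysyl hydroxylase that acts on the helix, read 10.31, 10.47 and 10.28 at 5 dpl, 10.59, 10.44 and 10.63 at 14 dpl and 10.02, 10.24 and 10.05 at 28 dpl. Every 28 dpl array was below all earlier ones, and it fell by 0.45 (SE 0.08, adjusted p = 0.00977) after 14 dpl. Its difference from 5 to 28 dpl, -0.25 (SE 0.08, adjusted p = 0.0391), ended when replicate 1 or 2 of 5 dpl, 1 or 3 of 14 dpl or 1 or 3 of 28 dpl was left out (adjusted p = 0.0504 to 0.128), with a mean-variance trend (0.0553), with cyclic loess (0.0937) and with only these time points fitted (0.0595). Plod2, the lysyl hydroxylase of the chain ends that sets the cross-links of scar, read 9.31, 9.26 and 9.66 at 5 dpl, 9.47, 9.95 and 9.89 at 14 dpl and 9.18, 9.17 and 9.30 at 28 dpl. It fell by 0.55 (SE 0.14, adjusted p = 0.0333) after 14 dpl, which ended when replicate 2 or 3 of 14 dpl or 1, 2 or 3 of 28 dpl was left out (adjusted p = 0.0712 to 0.102), and its early difference of 0.36 (SE 0.14, adjusted p = 0.117) passed when replicate 1 of 14 dpl was left out (adjusted p = 0.0233). P4ha1, a catalytic chain of prolyl 4-hydroxylase, which makes the helix stable, read 10.01, 9.92 and 10.24 at 5 dpl, 9.89, 9.92 and 9.95 at 14 dpl and 9.64, 9.65 and 9.91 at 28 dpl. It passed only from 5 to 28 dpl, with a difference of -0.33 (SE 0.10, adjusted p = 0.0263) that ended when replicate 3 of 5 dpl or 1 or 2 of 28 dpl was left out (adjusted p = 0.0817 to 0.0885), with cyclic loess (0.0563) and with only these time points fitted (0.0607).

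Loxl3, a lysyl oxidase that forms cross-links outside the cell, read 7.32, 7.25 and 7.38 at 5 dpl, 7.57, 7.70 and 7.69 at 14 dpl and 7.54, 7.44 and 7.64 at 28 dpl. No later array was as low as 5 dpl, where 2 arrays were above background. It rose by 0.34 (SE 0.07, adjusted p = 0.0093) by 14 dpl and by 0.22 (SE 0.07, adjusted p = 0.0269) by 28 dpl, and the latter ended when replicate 2 of 5 dpl or 1 or 3 of 28 dpl was left out (adjusted p = 0.0655 to 0.0922) and with only these time points fitted (0.0508). Lox, Loxl1 and Loxl2, of the same family, ranged from 8.51 to 9.66, 8.32 to 9.25 and 7.49 to 8.28, with differences of 0.07, 0.25 and -0.23 by 14 dpl, and did not pass in any comparison. Serpinh1, the collagen chaperone HSP47, and Plod3, a hydroxylase that also adds sugars, differed by 0.20 (SE 0.07, adjusted p = 0.095) and 0.26 (SE 0.09, adjusted p = 0.0808) by 14 dpl and did not pass either. P4ha2, the alternative prolyl 4-hydroxylase chain, was above background on 1 array; the comparison of 28 with 5 dpl (adjusted p = 0.0948) passed with array weights (adjusted p = 0.0431) and with a mean-variance trend (adjusted p = 0.0483).

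**Figure D3:**
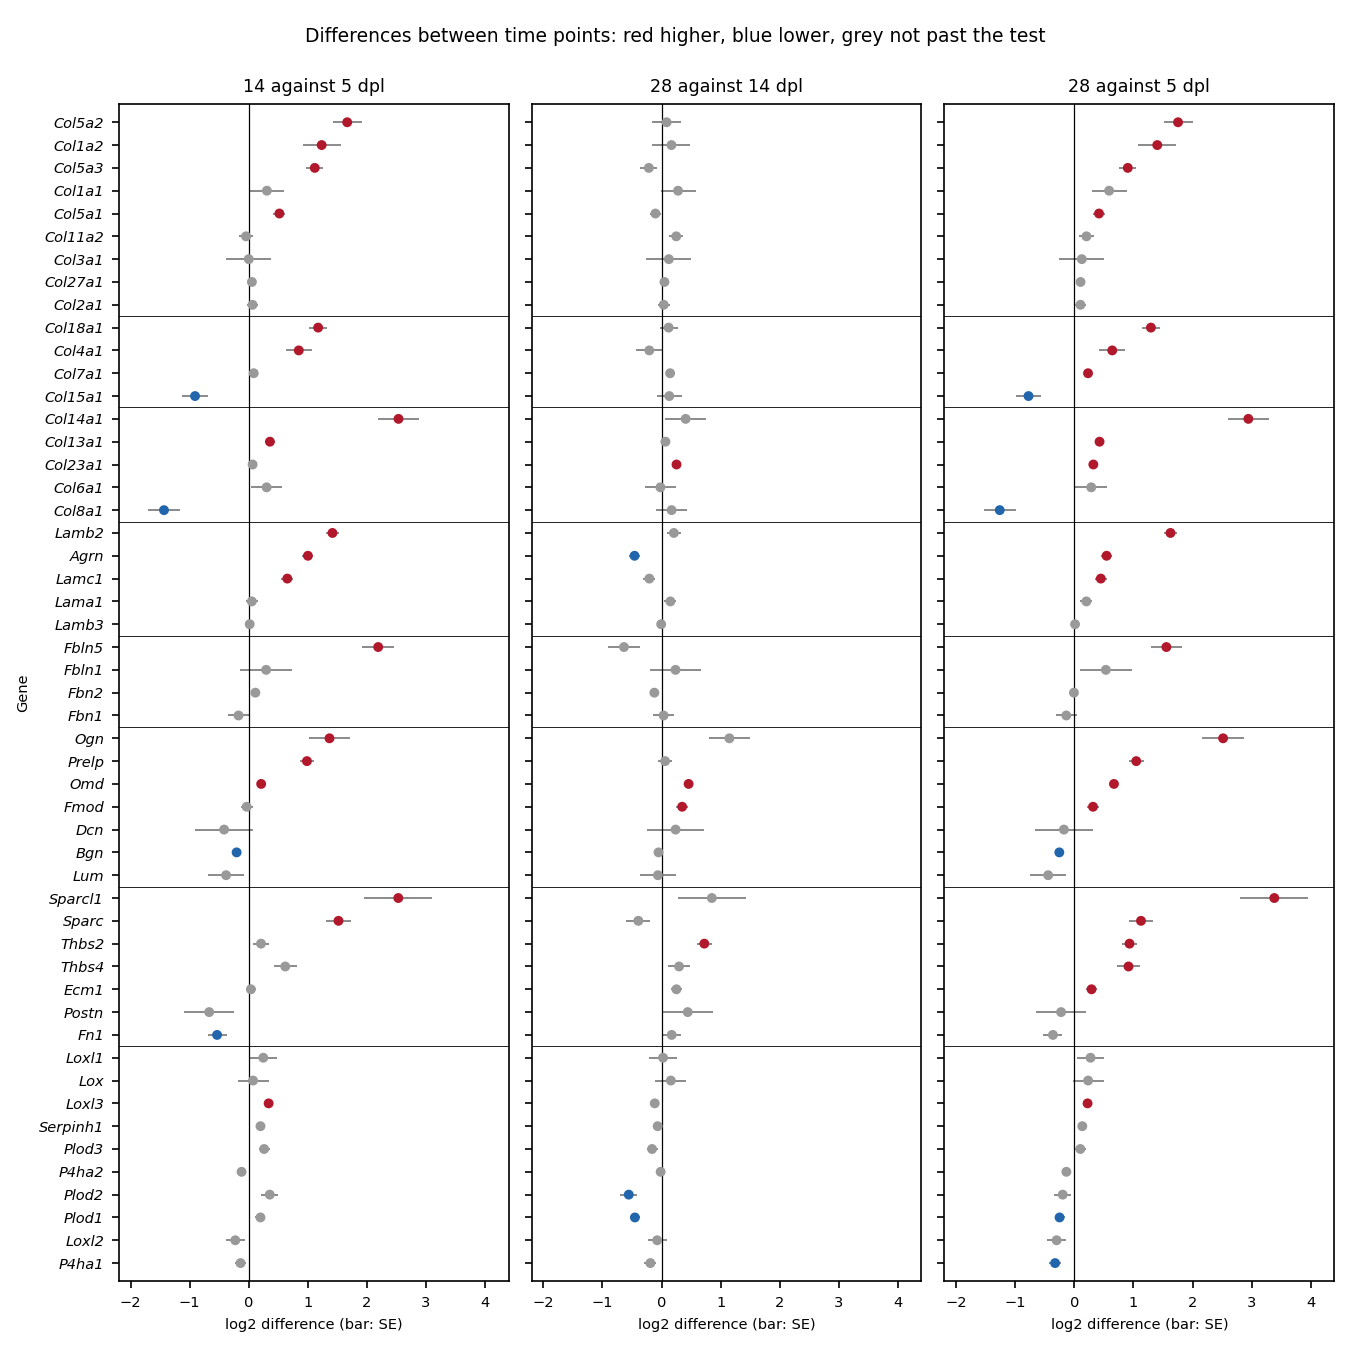
Log2 differences between time points (points) with their SE (bars) for 51 matrix genes in 3 comparisons, in the row order of the heat map; red points were higher and blue points lower past limma's threshold, and grey points did not pass. Red points number 18, 4 and 24 and blue points 4, 3 and 5 from left to right, and the comparisons share arrays.

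The arrays of a time differed among themselves in the same direction for many of these genes. Replicate 1 at 14 dpl was the lowest array of its time for 42 of 51 genes (82.4%), and replicate 3 the highest for 34 (66.7%). Among the 7537 probes above background on all arrays these shares were 35.1% and 26.4%. At 5 dpl replicate 3 was the highest for 30 genes (58.8%, against 31.1% of those probes), and at 28 dpl replicate 2 for 22 (43.1%, against 36.9%). The mean level over the 51 genes was 8.44, 8.39 and 8.67 at 5 dpl, 8.68, 8.92 and 9.07 at 14 dpl and 8.98, 8.96 and 8.97 at 28 dpl, with replicate 3 of 5 dpl next to replicate 1 of 14 dpl. At 28 dpl Dcn, Lum, Fbln1, Col6a1 and Loxl1 were highest on replicate 2, whereas Col1a1, Col3a1, Col5a2 and Col14a1 were lowest there. These genes were picked out after their values were seen. Of 12 measured markers of fibroblasts and pericytes 3 rose and 1 fell by 14 dpl (Anpep, which fell by 2.04). These shares were 25% and 8.33%, against 10.7% and 10.1% of all probes. Among the 3, Slc6a13 (limma adjusted p = 0.0478) lost its call when any array except 14 dpl replicate 1 was left out (0.0514 to 0.117). The mean level of the 12 was 9.81, 9.66 and 9.70 at 5 dpl, 9.88, 10.01 and 10.30 at 14 dpl and 10.12, 10.32 and 10.02 at 28 dpl. Their part was not tested.

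**Figure D4:**
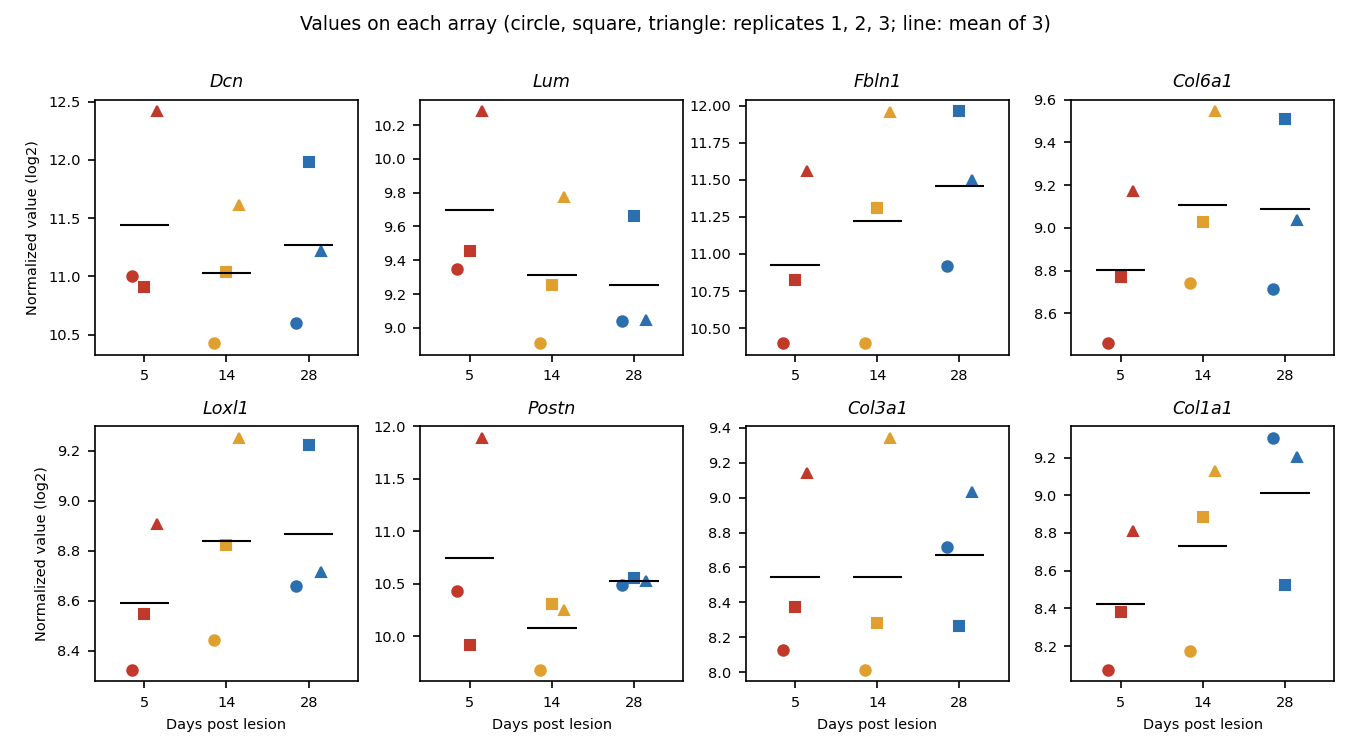
Normalized log2 values of 8 matrix genes that did not pass in any comparison, on each array against days post lesion; symbols are replicates, lines are means of 3 arrays, and each panel has its own scale. Replicate 3 (triangle) is the highest array at 5 dpl in all 8, replicate 1 (circle) is the lowest at 14 dpl in all 8, and the 5 dpl range overlaps both later ranges. The 8 genes were picked by name. Of the 16 genes with no F test call that were above background on all arrays, 15 (93.8%) and 14 (87.5%) held these places. Among all probes above background on all arrays the shares were 31.1% and 35.1%.

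Genes that sense, process or signal from matrix were split. Of 44 listed receptors, procollagen-processing factors and genes of the TGF-beta axis 30 were measured. By 14 dpl 7 rose and 8 fell (23.3% and 26.7%, against 10.7% and 10.1% of all probes). After 14 dpl 2 rose and 5 fell (6.67% and 16.7%, against 7.49% and 7.48%). From 5 to 28 dpl 7 rose and 12 fell (23.3% and 40%, against 20.2% and 24.1%). The medians were -0.02, -0.08 and -0.18. Sdc1, a cell-surface heparan sulfate proteoglycan that binds collagen and fibronectin, read 9.55, 9.74 and 10.29 at 5 dpl, 7.67, 7.66 and 7.83 at 14 dpl and 7.45, 7.85 and 7.47 at 28 dpl. The 5 dpl arrays stood well above all others, and it fell by 2.14 (SE 0.18, adjusted p = 0.000197) by 14 dpl. Tgm2, a transglutaminase that cross-links fibronectin, read 8.67, 9.05 and 9.11 at 5 dpl, 7.66, 7.77 and 7.75 at 14 dpl and 7.54, 7.83 and 7.63 at 28 dpl, and fell by 1.22 (SE 0.12, adjusted p = 0.000369). Dag1 read 11.36, 11.05 and 11.27 at 5 dpl, 12.75, 13.54 and 13.40 at 14 dpl and 13.65, 13.32 and 13.56 at 28 dpl, and Itga7 8.03, 7.38 and 7.60 at 5 dpl, 9.35, 10.19 and 9.80 at 14 dpl and 10.47, 9.94 and 10.39 at 28 dpl. Both were higher on every later array than on any at 5 dpl, and after 14 dpl they differed by 0.28 (SE 0.19, adjusted p = 0.385) and 0.48 (SE 0.24, adjusted p = 0.217).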

How the data were processed

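Arrays carried biotinylated cRNA made with the Ambion TotalPrep kit, per the labels' protocols. The authors deposited normalized values on a log2 scale for 10552 probes. How they were transformed and filtered was not stated. All arrays share 1 distribution (median 8.31), as after quantile normalization. The deposited raw table holds signal intensity for 22226 targets, not normalized per the file headers, and a detection p-value for each. It shares 0 identifiers with the normalized table and names no replicates, so it served only to estimate background. With a detection threshold of 0.01, 10552 targets were detected on some array and 8727 to 9330 (39.3% to 42.0%) on each. Taking these to be the probes of the normalized table, which could not be checked, the rank of the undetected targets put background at 7.25 to 7.31; 7.31 was used. Where every array of a time lay below it, the fold is a bound and is written "at least". Ranked normalized values rose by 0.52 per unit of ranked raw log2 signal near 6.5 and by 0.96 near 10, which shrinks the differences of dim genes.

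Each time had its own mean in lmFit and eBayes (limma 3.58.1, R 4.3.3). Gene names are the platform annotation's: 7679 probes have 1 symbol, 0 several and 2873 none here, and all 51 genes matched RefSeq by gene identifier. Values on all arrays are given for up to 4 genes per role with the smallest F test p and for 12 genes fixed by name where measured. Lists and tests were chosen with earlier results of these data known. Correlations between the deviations of same-numbered arrays were -0.29 to 0.15, above 0.1 in 1 of 9 pairs. Among the 51 genes, though, same-numbered arrays often held the same place at 5 and 14 dpl. Replicate 1 was the lowest array for 27 at 5 dpl (52.9%, against 44.2% of all probes above background on all arrays). At 14 dpl it was the lowest for 42 (82.4% against 35.1%). Replicate 3 was the highest for 30 and 34 (58.8% and 66.7%, against 31.1% and 26.4%). At 28 dpl replicate 1 was lowest for 19 (37.3% against 30.2%) and replicate 3 highest for 12 (23.5% against 31.1%). The fit was tested on simulated data. Alternatives were array weights, a mean-variance trend, cyclic loess, only the times compared, a filter on dim probes, the mean of a gene's probes, the replicate number as a block, and each array left out.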

Additional observations from a re-analysis of the deposited data

How the results depend on the processing

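Counts are of the 51 genes. With each array left out in turn, those that differed over time numbered 24 to 27 (29 with all arrays). Those higher and lower at 14 than 5 dpl numbered 12 to 19 and 1 to 4 (18 and 4), at 28 than 14 dpl 2 to 6 and 1 to 4 (4 and 3), and at 28 than 5 dpl 20 to 25 and 3 to 5 (24 and 5). The replicate block left 2 lower at 14 dpl. The filter on dim probes, which removed some of the genes, left 2 higher at 28 than 14 dpl. Cyclic loess, and a fit of only these times, each left 3 lower at 28 than 5 dpl. The other counts stayed within 1.5 times. Of 3249 recomputed differences of single genes (the 51 and the others named) 0 called values changed sign, 122 lost their call and 27 gained one, the cause of which was not tested. With the replicate block the calls of Bgn (adjusted p = 0.0622), Col4a1 (0.0542), Fn1 (0.0811), Ogn (0.0504) and Omd (0.0605) for 14 against 5 dpl ended, as did Col23a1 (0.0860) for 28 against 14 dpl and Col4a1 (0.0698) and Plod1 (0.0706) for 28 against 5 dpl, and outside the 51 Smoc2 (0.0675) for 14 against 5 dpl; the block changed no other call. Same-numbered arrays share only a number. With 3 arrays a time, 18 of the 51 genes at or below background on at least 1 array, and 1 probe a gene, the data resolve small changes of dim genes poorly.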

Other observations

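Other matrix genes that the choice by symbol does not reach were listed by name after the data had been seen. Of 52 listed 28 were measured. By 14 dpl 9 rose and 5 fell (32.1% and 17.9%, against 10.7% and 10.1% of all probes). After it 3 rose and 2 fell (10.7% and 7.14%, against 7.49% and 7.48%). From 5 to 28 dpl 10 rose and 6 fell (35.7% and 21.4%, against 20.2% and 24.1%). Mxra8, an adhesion protein of the matrix, read 7.83, 7.69 and 7.74 at 5 dpl, 9.29, 9.67 and 9.60 at 14 dpl and 9.83, 9.43 and 9.89 at 28 dpl, and rose by 1.77 (SE 0.13, adjusted p = 0.000151) by 14 dpl in limma's test. Egflam, or pikachurin, a ligand of dystroglycan, read 6.95, 6.97 and 7.20 at 5 dpl, 8.22, 8.68 and 8.55 at 14 dpl and 8.88, 8.58 and 8.52 at 28 dpl, below background on all 5 dpl arrays, and rose by at least 1.17 (adjusted p = 0.000316) by 14 dpl. In both, every later array was above every 5 dpl array. Smoc2, a calcium-binding matrix protein related to Sparc, read 7.08, 7.05 and 7.07 at 5 dpl, 7.20, 7.27 and 7.32 at 14 dpl and 7.98, 7.90 and 8.07 at 28 dpl, and rose by 0.72 (SE 0.06, adjusted p = 0.000428) after 14 dpl. Only 4 of its arrays were above background, 14 dpl replicate 3 and those of 28 dpl, so that size rests in part on arrays below it. Gpc3, a cell-surface heparan sulfate proteoglycan picked for its values, was highest at 14 dpl, at 8.38, 7.86 and 7.92 at 5 dpl, 8.85, 9.13 and 9.30 at 14 dpl and 8.41, 8.03 and 7.87 at 28 dpl. Its rise to 14 dpl was 1.04 (SE 0.18, adjusted p = 0.00513), and after it Gpc3 fell by 0.99 (SE 0.18, adjusted p = 0.00947). Emilin1, a protein of elastic fibres, read 8.11, 7.92 and 8.05 at 5 dpl, 7.53, 7.54 and 7.58 at 14 dpl and 7.40, 7.38 and 7.38 at 28 dpl, and fell by 0.48 (SE 0.06, adjusted p = 0.000865) by 14 dpl.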
